A study of Mus musculus with 18 samples.

Results

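Glutamate receptor subunits were followed through 18 mouse RNA sequencing libraries, made to study how peroxisomal lipid synthesis bears on cortical neurogenesis. The 9 genes were taken by symbol from each of 4 tables of 32941 genes. They were the AMPA receptor subunits Gria1, Gria2, Gria3 and Gria4, the NMDA receptor subunits Grin1, Grin2a, Grin2b and Grin3a, and the metabotropic receptor Grm5. All 9 were present in all 4 tables.

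Each perturbation had 2 libraries per group. PLA1 was brain with PLAAT3-PEX11 overexpression and Ctrl1 its WT brain control. Neuron-PLA and Neuron-ctrl were a further pair with the same genotypes, labelled brain and named for neurons. NSC-Pex7sh was primary neural stem cells with PEX7 knockdown, and NSC-Scramble was WT primary neural stem cells with a scramble control. WT brain at E11, E12, E13, E14, E16 and E18 had 1 library per stage, although the design text speaks of cortex in triplicate. The vector and promoter of the overexpression, the isolation of the neurons, strain and animal age outside the stages are not given in the sources used here. The sources do not state whether the libraries of a group were separate animals or cultures, and p-values then reflect only the variation among these libraries, which could be technical.

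AMPA receptors carry most fast excitatory transmission in the brain. The subunit encoded by Gria2, once its RNA has been edited at the codon of the pore loop called the Q/R site, keeps the channel from passing calcium. NMDA receptors need Grin1 together with Grin2 subunits. Grin2b is the main Grin2 subunit of the embryonic forebrain, and Grin2a is known for its increase after birth. Grin3a lowers the calcium flow of juvenile NMDA receptors. Grm5 signals through Gq proteins, in progenitors as well as in neurons. Pex7 carries a set of enzymes into peroxisomes, among them the ether lipid enzyme Agps, and Plaat3 is a phospholipase A and acyltransferase.

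Values are RPKM, which scale reads to exon length and to the library's total, so levels of different genes can be set side by side within a table. They still rest on each gene's merged exon length, which ran from 6043 bases for Gria1 to 24842 for Grin2b. The 4 tables were separate, and no test crosses them except as a difference of differences. The 12 perturbation libraries held 16147911 to 28104927 reads each, and the stages held 41501880 to 54373317. The targeted genes went with the labels. Plaat3 stood at 31.4 and 29.1 RPKM in PLA1 against 0.413 and 0.431 in Ctrl1, and at 19.0 and 20.8 RPKM in Neuron-PLA against 0.0699 and 0.230 in Neuron-ctrl. Pex7 stood at 0.500 and 0.669 RPKM in NSC-Pex7sh against 1.19 and 1.22 in NSC-Scramble. All 14 neuron markers were detected in every library, those labelled stem cells included, where their summed level was 1386 and 1411 RPKM in NSC-Pex7sh and 1179 and 1589 in NSC-Scramble. The 10 radial glia markers summed to 1046 and 1053 RPKM in NSC-Pex7sh and to 1175 and 833 in NSC-Scramble.

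The AMPA subunits share the pore loop at which Gria2 is edited. The coding stretch that holds it is printed for each, read from the mm10 genome 5′ to 3′ on the gene's strand and ending with its exon. It lies in exon 12 of Gria4 and exon 11 of the other genes, and capitals mark the glutamine codon of the Q/R site.
Gria1: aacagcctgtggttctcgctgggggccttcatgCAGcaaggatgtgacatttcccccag
Gria2: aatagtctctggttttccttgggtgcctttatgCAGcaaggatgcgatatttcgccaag
Gria3: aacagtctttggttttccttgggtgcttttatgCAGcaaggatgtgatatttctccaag
Gria4: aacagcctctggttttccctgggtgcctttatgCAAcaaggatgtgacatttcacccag

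The stretches lie at chr11:57243061-57243119 on the plus strand, chr3:80706888-80706946 on the minus strand, chrX:41610232-41610290 on the plus strand and chr9:4464114-4464172 on the minus strand. Of 59 bases, Gria1 shares 47 with Gria2, Gria3 shares 54 and Gria4 shares 51. All 4 genes encode glutamine at the site in the genome, by CAG in Gria1, Gria2 and Gria3 and by CAA in Gria4. RPKM count reads over whole genes and hold no measure of editing. Each level of Gria2 here is therefore of edited and unedited RNA together.

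Across development 7 subunits rose in brain, at very different paces, while Grin2a was too low to be tested and Grin3a could be tested only with E18. Among AMPA subunits, Gria1 (mm10 chr11:57011387-57330244, plus strand) had 1.90, 8.95, 14.8, 14.5, 25.4 and 40.0 RPKM at E11, E12, E13, E14, E16 and E18. Gria2 (chr3:80681450-80802835, minus strand) had 3.51, 9.38, 15.1, 11.7, 21.5 and 15.3 RPKM. Gria1 was thus highest at the last stage, while Gria2 was highest at E16. The E18 level over the E16 level was 1.58 for Gria1 (95% counting interval 1.53 to 1.63) and 0.708 for Gria2 (0.691 to 0.725). These intervals come from the recovered reads and cover counting error only, since each stage was 1 library. Gria2 was the only member with a lower value at E18 than at E16.

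Gria4 (chr9:4417896-4796234, minus strand) had 2.16, 4.41, 4.91, 4.79, 6.87 and 9.29 RPKM over the same stages. Gria3 (chrX:41400854-41678601, plus strand) had 0.633, 1.57, 2.49, 2.23, 3.48 and 3.97 RPKM and was the lowest AMPA subunit at every stage. At E11 the level of Gria4 was 1.14 times that of Gria1 (95% counting interval 1.02 to 1.27), and by E18 Gria1 was far above Gria4.

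The 4 NMDA members started lower than the AMPA subunits. Grin1, the obligatory subunit (chr2:25291181-25319187, minus strand), had 0.415, 1.45, 2.61, 2.35, 5.40 and 14.1 RPKM. Its antisense neighbour Grin1os shares 1307 exon bases with it, and the strand setting of the counting is not given in the sources used here, so reads of the pair cannot be told apart. Grin2b (chr6:135713233-136173511, minus strand) had 0.125, 1.09, 2.22, 1.52, 4.44 and 7.94 RPKM. It shares shorter exon stretches with opposite-strand genes, 143 bases at most.

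Grin3a (chr4:49661611-49845744, minus strand) had 0.202, 0.473, 0.653, 0.415, 1.49 and 5.76 RPKM. Grin2a (chr16:9567898-9995560, minus strand) was the lowest member at every stage, with 0.0213, 0.0282, 0.0565, 0.0404, 0.0998 and 0.457 RPKM. Its E11 value rested on 20 reads, and the level of Grm5, next to it at E11, was 1.57 times as high with a counting interval that included 1 (0.786 to 3.14). The level of Grin2b was 5.88 times that of Grin2a at E11, 37.7 to 44.5 times from E12 to E16, and 17.4 times at E18.

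The metabotropic receptor Grm5 (chr7:87584168-88134907, plus strand) had 0.0335, 0.409, 1.19, 0.901, 2.73 and 7.05 RPKM. Its E18 level was 210 times its E11 level (132.8 to 355). Grin2b followed with 63.4 times, Grin1 with 33.8, Grin3a with 28.5, Grin2a with 21.5 and Gria1 with 21.1. The other AMPA subunits had the smallest ratios, 6.27 for Gria3, 4.35 for Gria2 and 4.30 for Gria4.

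**Figure D1:**
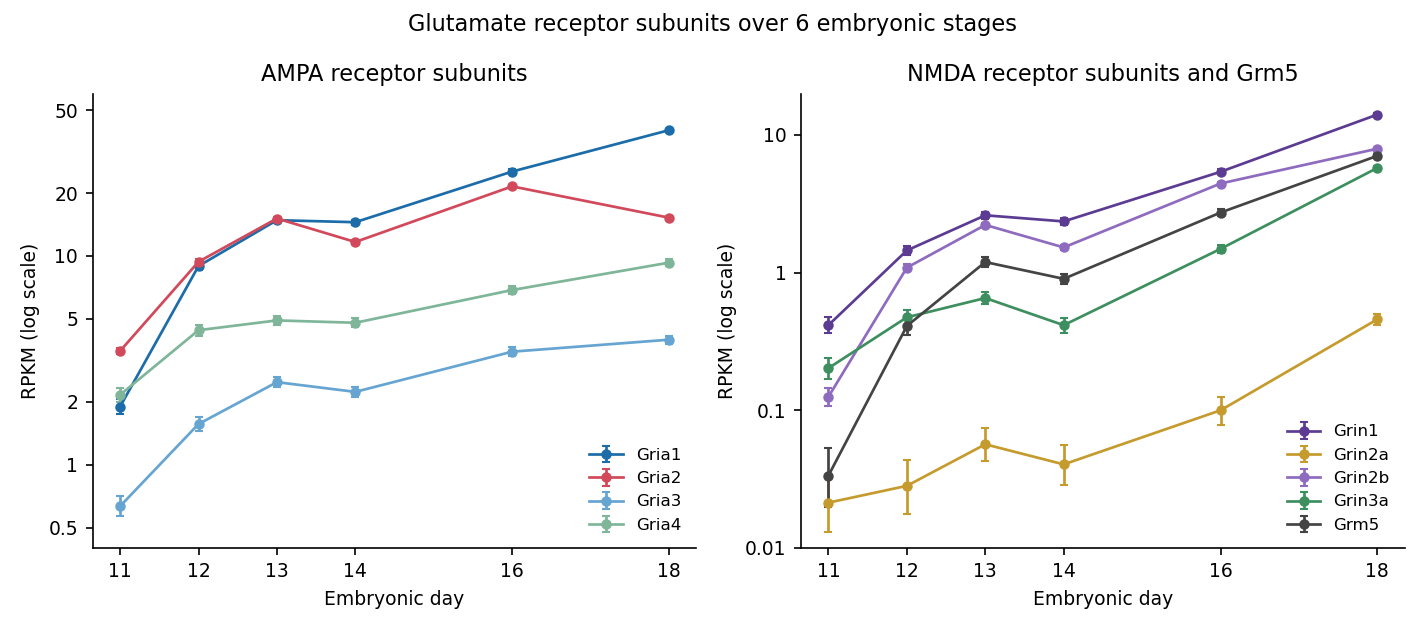
RPKM of AMPA subunits (left) and of NMDA subunits and Grm5 (right) in 1 library per embryonic stage, on log axes with 95% counting intervals. Gria1 reached 40.0 RPKM at E18 while Gria2 stood at 15.3.

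All 9 members had a lower value at E14 than at E13, with ratios between 0.635 for Grin3a and 0.978 for Gria1. For 6 of the 9 the counting interval lay below 1, and for Gria1, Gria4 and Grin2a it included 1. All 9 were then higher at E16 than at E14, by 1.43 to 3.58 times. The share of all genes that moved in these directions was not taken, so neither count is shown to be particular to the receptor genes. The summed level of the neuron markers was 1859 RPKM at E13, 1808 at E14 and 2570 at E16. With 1 library per stage, a feature of the E14 library and a feature of the stage cannot be told apart.

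In limma on log2(RPKM + 1), all 7 members that could be tested with and without E18 had a positive slope on embryonic day at an adjusted p under 0.05, where 19.6% of the 12921 genes tested did, 25.5% had a negative slope and 45.1% passed in either direction. Grin2a was under the minimum mean of 1 RPKM and was not tested. Grm5 was under 1 RPKM at E11, E12 and E14 and passed that minimum mainly through E16 and E18, where it was highest. Its call among the 7 thus leans on the stages that let it be tested. Grin3a passed the minimum through E18 alone. The slope of Grin3a, 0.32 (SE 0.06), is therefore given as a description and is not counted. Gria1 had a slope of 0.46 per day (SE 0.08, adjusted p = 0.00373), Grin1 0.44 (SE 0.04, 0.000653), Grm5 0.40 (SE 0.04, 0.000676) and Grin2b 0.39 (SE 0.05, 0.00110). Counting the gene itself, 73 of the genes tested had a slope at least as large as that of Gria1, and 93 one at least as large as that of Grin1. Gria4 had 0.21 (SE 0.03, adjusted p = 0.00331), Gria3 0.20 (SE 0.04, 0.00612) and Gria2 0.23 (SE 0.08, 0.0477), all by limma.

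The call of Gria2 was the weakest. By limma its adjusted p was 0.163 without E11, where the slope was 0.11, and 0.0705, 0.0738 and 0.110 without E12, E14 and E16, with a range of 0.0296 to 0.163 over all its alternatives. In these bulk libraries fewer cells of a type and less RNA per cell cannot be told apart. Of the 14 neuron markers, 10 also had a rising slope and none a falling slope, with a summed level of 1130 RPKM at E11 and 3714 at E18. Of the 10 radial glia markers 8 fell and 1 rose. The part of cell makeup in the slopes was not tested.

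The make-up of the AMPA subunits shifted with stage. Gria2 made up 42.8%, 38.6%, 40.5%, 35.1%, 37.6% and 22.3% of the summed RPKM of Gria1 to Gria4 from E11 to E18. Gria1 made up 23.2%, 36.8%, 39.7%, 43.7%, 44.3% and 58.4%, and Gria4 went down to 13.6% at E18 against 26.4% at E11. Gria2 was above Gria1 at E11, the counting interval of their ratio included 1 at E12 and E13 (0.999 to 1.10 and 0.985 to 1.05), and Gria1 was above Gria2 from E14 on. The summed AMPA level was 10.7 times the sum of the 4 NMDA members at E11 and 2.43 times at E18. With the NMDA subunits Grin2c, Grin2d and Grin3b added it was 2.35 times at E11, 3.99 at E14 and 1.64 at E18, so the difference between E11 and E18 was much smaller. Grin3b alone had 2.44 RPKM at E11. Shares between genes depend on the exon lengths used, and Gria2's merged length of 15548 bases includes transcripts with retained introns. For a ratio of single genes the direction over libraries does not depend on a fixed length. For a share or a sum over several genes it can.

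The patterns of the members over the 6 stages, as Pearson correlations of log2(RPKM + 1), were closest for Grin1 and Grm5 (r = 0.996) and for Gria1 and Gria3 (r = 0.993). Gria2 was least like the late subunits, with r = 0.397 to Grin2a and 0.546 to Grin3a. The points are 6 single libraries that share their depth and stage, so these values describe the curves and carry no test. Among 7701 genes averaging 5 RPKM or more, the closest to Gria1 were Evi5l and Ppp1r14c (r = 0.999 each), and the closest to Gria2 were Zfp57 (0.997) and Cnnm3 (0.996). Gria3 was closest to Mturn (0.999) and Rbfox1 (0.998), and Dpf1 was among the closest to Gria4 (0.999). Grin1 was closest to Susd4 (0.9997) and Stx1a (0.9996), Grin2b to Unc13a and Trim67 (0.998 each), and Grin2a to Chmp2b and Nme7 (0.998 each). Grin3a was closest to Smim10l2a and Atp1b1 (0.999 each) and Grm5 to Ngef and Ppfia3 (0.999 each). Such values are common among smooth curves of 6 points, and between 6 and 143 genes reached r of 0.99 with a given member.

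The molecules around the receptors were read from lists of 66 genes in all. Of the 57 tested, 39 rose with stage (68.4%) and 5 fell (8.77%), where 19.6% of all genes tested rose and 25.5% fell. The count of risers includes genes, Grm7 and Grik4 among them, that passed the minimum level only through E18, where they were highest. Among auxiliary subunits, which traffic and gate AMPA and kainate receptors, 12 of 14 rose and none fell, among them Cacng3 (0.39 per day, SE 0.04), Cnih3 (0.43, SE 0.05), Shisa9 (0.33, SE 0.04) and Cacng8 (0.24, SE 0.03). Of 23 scaffold and trafficking genes 14 rose, with Nptxr, a pentraxin receptor that clusters AMPA receptors, at 0.50 (SE 0.07), Dlg2 at 0.43 (SE 0.05), Grip2 at 0.41 (SE 0.04) and Dlgap3 at 0.31 (SE 0.04). Homer3 (-0.16 per day) and Dlg1 (-0.10) fell, and both are named after their values were seen.

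Of 8 other ionotropic subunits tested 6 rose, led by the NMDA subunit Grin2d at 0.41 per day (SE 0.05), with Grid1 and Grik1 at 0.24 each and Grik4 at 0.20. Among the other metabotropic receptors Grm2 (0.25) and Grm7 (0.27) rose of 3 tested. Grm7 and Grik4 passed the minimum of 1 RPKM through E18, with 3.91 and 3.43 RPKM there, against 1.04 and 1.12 at E16. Both were under 1 RPKM from E11 to E14, so their slopes are descriptions. Among glutamate transporters the vesicular Slc17a7 rose at 0.32 and Slc17a6 fell at -0.13, while the uptake carriers Slc1a1 and Slc1a3 rose at 0.37 and 0.17. Adarb1, the enzyme that edits the Q/R site of Gria2, rose at 0.19 per day (SE 0.03), and Adar rose at 0.08 (SE 0.03). Rest, a repressor of neuronal genes, fell at -0.19 (SE 0.03), with its partner Rcor1 at -0.10. All these calls were made by limma at an adjusted p under 0.05.

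**Figure D2:**
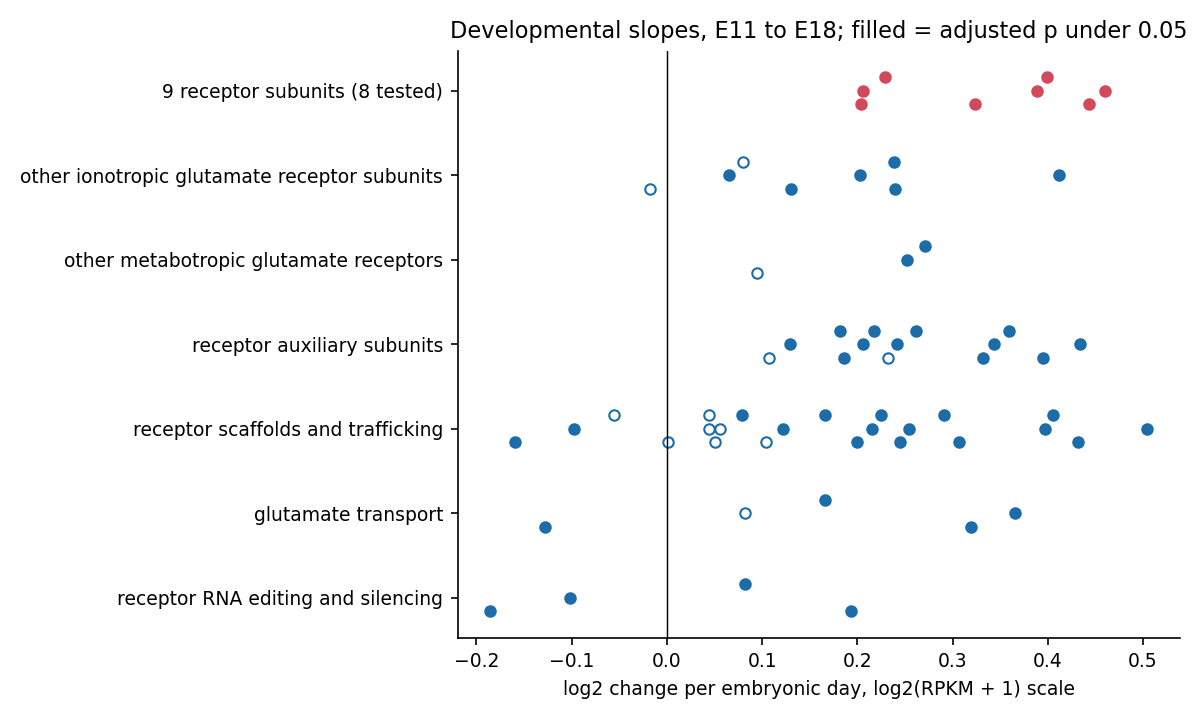
Slope on embryonic day, in log2(RPKM + 1) per day, of each tested receptor subunit (top row) and of each tested gene of 6 lists around the receptors, where every point is 1 gene and filled points passed an adjusted p of 0.05. The 8 subunits lie between 0.20 and 0.46, Grin3a among them through E18 alone, and the auxiliary subunits all lie above 0. Grm7 and Grik4 in the lists also passed the minimum level through E18 alone.

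Rest binds a sequence called RE1, which the Gria2 promoter is known to carry. Promoters of 3 of the 9 members (Grin1, Gria2 and Gria4) were in the RefSeq table for GRCm38.p6 (250 bases before to 50 after the start), and the RE1 core, 14 letters of which 2 are free, was searched on both strands. The motif was chosen after the promoter had been read. It matched in Gria2 only among these 3, on the minus strand relative to transcription, at -170 to -157 from the start, and in 17 of 32851 promoters of that length (0.0517%). A form of 17 letters, which contains the core, matched in 4 promoters (0.0122%) and in no member. The stretch is shown because Rest moved with stage and with overexpression in the first set, and capitals mark the match (GRCm38.p6 chr3:80802936-80803055, minus strand, 120 bases from -220 to -101).
Gria2 promoter: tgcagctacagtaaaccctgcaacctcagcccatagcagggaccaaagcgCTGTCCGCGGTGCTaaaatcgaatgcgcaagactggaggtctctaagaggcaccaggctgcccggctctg
A match is a description of these letters and does not show binding, and a link of Rest to the level of Gria2 was not tested.

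With PLAAT3-PEX11 overexpression in the first set, Gria1 and Grin2b fell, while Gria2 was not called. Gria1 had 9.94 and 9.29 RPKM in PLA1, against 18.5 and 20.7 in Ctrl1. The means were 9.62 ± 0.459 in PLA1 and 19.6 ± 1.53 in Ctrl1 (SD, n = 2 each), a log2 change of -0.96 (SE 0.11, limma adjusted p = 0.00127). Grin2b had 1.95 and 2.05 RPKM in PLA1, against 4.35 and 4.48 in Ctrl1, a log2 change of -0.85 (SE 0.15, limma adjusted p = 0.00614). In both genes every PLA1 library was below every Ctrl1 library. Of the 5 members tested 2 fell and none rose, where 13.2% of 11623 genes tested fell, 16.3% rose and 29.6% passed in either direction.

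Gria2 had 12.1 and 12.5 RPKM in PLA1, against 10.8 and 11.1 in Ctrl1. Its libraries did not overlap and lay higher in PLA1, with a log2 change of 0.15 (95% interval -0.09 to 0.39, limma adjusted p = 0.290). Gria4 had 2.21 and 1.68 RPKM in PLA1, against 2.89 and 2.95 in Ctrl1 (-0.42, SE 0.17, limma adjusted p = 0.102). Gria3 had 2.28 and 2.77 RPKM in PLA1, against 2.90 and 3.61 in Ctrl1 (-0.27, SE 0.17, limma adjusted p = 0.257). Gria4 passed with limma-voom on recovered reads (-0.61, adjusted p = 0.0459), within a range of 0.0459 to 0.328 over its alternatives. The call of Grin2b was just missed when no minimum level was set (limma adjusted p = 0.0502), and its range over all alternatives was 4.2e-05 to 0.0502.

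The remaining members were too low in this table to be tested. Grm5 had 0.973 and 0.604 RPKM in PLA1, against 1.09 and 1.23 in Ctrl1. Grin1 had 0.345 and 0.184 RPKM in PLA1, against 0.373 and 0.402 in Ctrl1. Grin3a had 0.177 and 0.173 RPKM in PLA1, against 0.0199 and 0.0774 in Ctrl1, and with Gria2 was a member whose PLA1 values lay above Ctrl1. Grin2a was at 0 in both PLA1 libraries, which allows up to 0.0104 and 0.00933 RPKM at 3 reads, and had 0.117 and 0.0212 RPKM in Ctrl1, from 43 and 8 reads. For all 5 members tested the groups did not overlap, 4 lower and 1 higher in PLA1. Among all genes tested 69.3% did not overlap, 29.7% lower and 39.6% higher. With the members too low to be tested added, 7 of 9 lay lower and 2 higher. For genes that low no share over all genes was taken.

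Other cell types moved in the same libraries. The 14 neuron markers summed to 560.0 and 555 RPKM in PLA1, against 1075 and 1065 in Ctrl1, and 8 of 14 fell and none rose (median log2 change -0.58, against 0.06 over all genes tested). The 8 microglia markers all fell, with sums of 187 and 202 RPKM in PLA1 against 461 and 430 in Ctrl1. Interneuron markers fell in 3 of 5 tested, with sums of 17.1 and 20.995 RPKM in PLA1 against 39.0 and 38.5 in Ctrl1, and Slc32a1 was at 0 in both PLA1 libraries. The 6 astrocyte markers summed to 80.1 and 85.2 RPKM in PLA1 against 212 and 210.2 in Ctrl1. Most of that sum was Apoe, which fell, while Gja1 rose and Gfap was at 0 in both PLA1 libraries. Of 10 radial glia markers 6 rose and 1 fell, with sums of 369.5 and 370.2 RPKM in PLA1 against 321 and 307 in Ctrl1. The change of Gria1 was 0.37 below the median of the neuron markers, that of Grin2b 0.27 below it and that of Gria2 0.74 above it, on the log2 scale. The part of these cell types in the receptor changes was not tested.

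**Figure D3:**
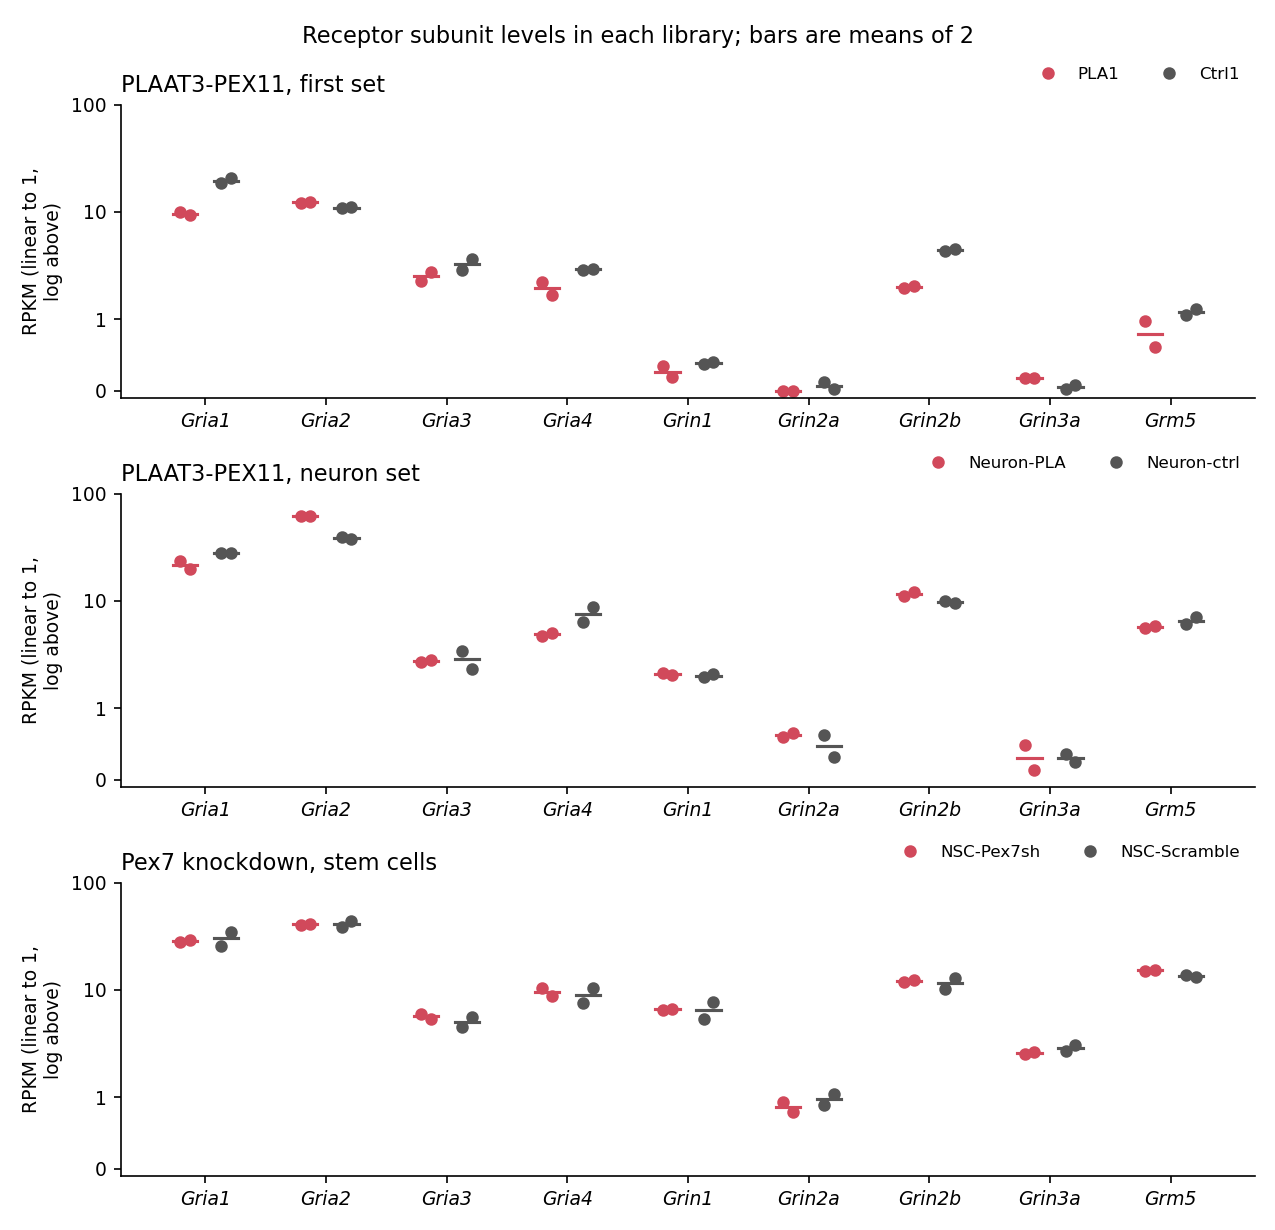
RPKM of the 9 members in each library of the 3 perturbations, on axes linear to 1 and logarithmic above, with the overexpression or knockdown libraries in red to the left of their controls in grey and bars for the mean of 2. In the first set Gria1 stands at 9.94 and 9.29 in PLA1 against 18.5 and 20.7 in Ctrl1, and in the neuron set Gria2 at 62.1 and 61.7 in Neuron-PLA against 39.1 and 37.6 in Neuron-ctrl.

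In the neuron set Gria2 rose. It had 62.1 and 61.7 RPKM in Neuron-PLA, against 39.1 and 37.6 in Neuron-ctrl. The means were 61.9 ± 0.230 in Neuron-PLA and 38.4 ± 1.08 in Neuron-ctrl (SD, n = 2 each), and the values rested on 20272 and 26979 reads in Neuron-PLA and 13606 and 12707 in Neuron-ctrl. The log2 change was 0.68 (SE 0.08, limma adjusted p = 0.0264). It was the 1 member called of 7 tested, where 0.376% of 11179 genes rose and 0.877% passed in either direction. Of the genes tested, Gria2 included, 208 had a log2 change at least as large.

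The size of the Gria2 change held between 0.65 and 0.70 in all 10 alternatives, but its call did not. The limma adjusted p was 0.118 without the first Neuron-ctrl library, 0.128 without the second, 0.115 without the first Neuron-PLA library and 0.247 with no minimum level, in a range of 1.4e-05 to 0.247.

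The other AMPA subunits did not pass. Gria1 had 23.4 and 19.9 RPKM in Neuron-PLA, against 28.1 and 28.2 in Neuron-ctrl (-0.37, SE 0.11, limma adjusted p = 0.165). Gria4 had 4.68 and 5.05 RPKM in Neuron-PLA, against 6.34 and 8.72 in Neuron-ctrl (-0.53, SE 0.18, limma adjusted p = 0.190). Both genes had every Neuron-PLA value under every Neuron-ctrl value, as did 25.3% of genes tested. Gria2 was above without overlap, as were 24.7%. Gria3 had 2.704 and 2.78 RPKM in Neuron-PLA, against 3.40 and 2.33 in Neuron-ctrl, and the groups overlapped.

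Grin2b had 11.0 and 12.1 RPKM in Neuron-PLA, against 9.89 and 9.63 in Neuron-ctrl (0.22, 95% interval -0.07 to 0.51, limma adjusted p = 0.408). Grin1 had 2.12 and 2.05 RPKM in Neuron-PLA, against 1.95 and 2.06 in Neuron-ctrl, and Grm5 had 5.56 and 5.85 in Neuron-PLA, against 6.04 and 7.03 in Neuron-ctrl. Grin2a had 0.5999 and 0.649 RPKM in Neuron-PLA, against 0.624 and 0.316 in Neuron-ctrl, and Grin3a had 0.477 and 0.139 in Neuron-PLA, against 0.357 and 0.247 in Neuron-ctrl. Neither of these last genes was tested. The Grin1 values overlapped between groups and those of Grm5 lay lower in Neuron-PLA, without passing.

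None of the 14 neuron markers was called in this set, and their sums were 2543 and 2616 RPKM in Neuron-PLA against 2592 and 2665 in Neuron-ctrl (median log2 change 0.07). Summed markers of several other cell types were lower. Interneuron markers fell in 6 of 8 tested, with sums of 68.0 and 71.3 RPKM in Neuron-PLA against 130.9 and 129.2 in Neuron-ctrl. Endothelial markers summed to 1.65 and 1.29 RPKM in Neuron-PLA against 19.8 and 19.2 in Neuron-ctrl, with 3 of 5 at 0 in each Neuron-PLA library. In Neuron-ctrl most of that sum was Cldn5, the 1 endothelial marker tested, which fell. Microglia markers summed to 81.6 and 71.9 RPKM in Neuron-PLA against 127.2 and 130.3 in Neuron-ctrl, and astrocyte markers to 110.8 and 135.9 in Neuron-PLA against 206 and 219 in Neuron-ctrl. Of those tested, 2 of 8 microglia markers and 1 of 4 astrocyte markers were called lower, and most of the astrocyte sum was Apoe. Radial glia markers summed to 166 and 206 RPKM in Neuron-PLA against 315 and 322 in Neuron-ctrl, with 2 of 7 tested called lower. The part of these cells in the change of Gria2 was not tested.

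**Figure D4:**
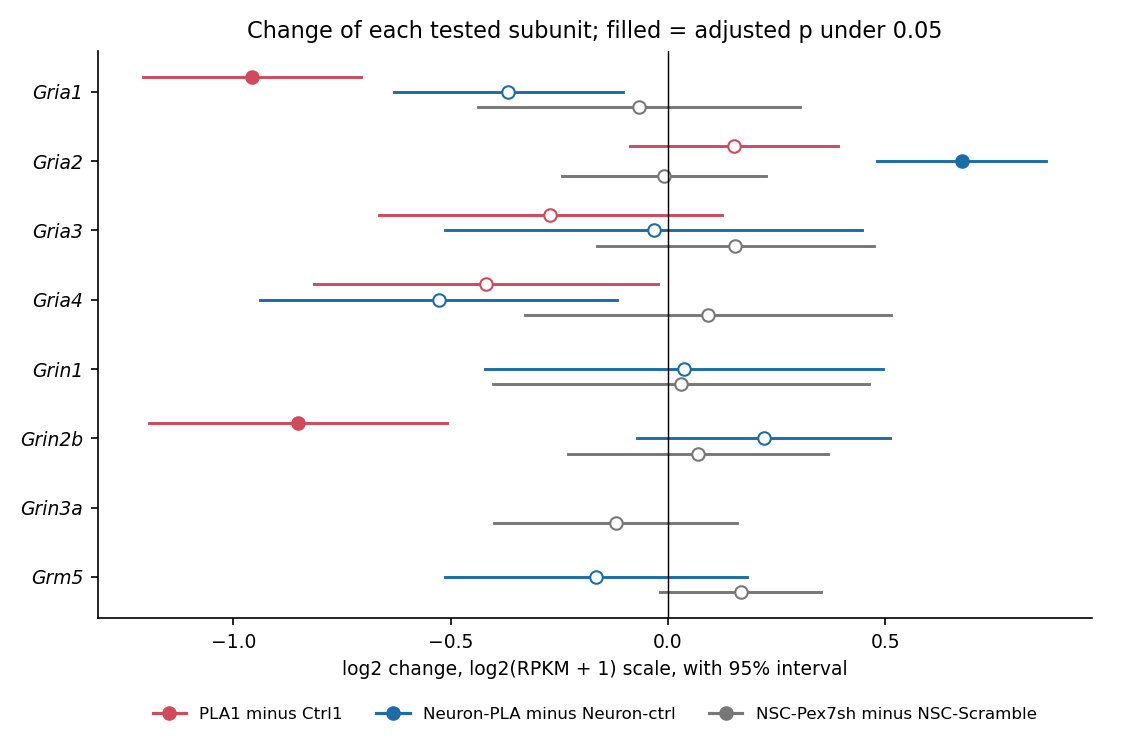
Log2 change with its 95% interval, on the log2(RPKM + 1) scale, of each member tested in PLA1 minus Ctrl1, Neuron-PLA minus Neuron-ctrl and NSC-Pex7sh minus NSC-Scramble. Filled points passed an adjusted p of 0.05: Gria1 (-0.96) and Grin2b (-0.85) in the first set and Gria2 (0.68) in the neuron set.

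Within AMPA subunits the share of Gria2 was higher with overexpression in both sets. In the first set it was 45.6% and 47.6% of the summed AMPA RPKM in PLA1, against 30.8% and 28.9% in Ctrl1, with means of 46.6% ± 1.44 in PLA1 and 29.8% ± 1.32 in Ctrl1 (SD, n = 2 each). In the neuron set it was 66.8% and 69.03% in Neuron-PLA, against 50.9% and 49.0% in Neuron-ctrl, with means of 67.9% ± 1.54 in Neuron-PLA and 49.9% ± 1.35 in Neuron-ctrl (SD, n = 2 each). The differences of 16.8 and 18.0 percentage points were larger than the spread between libraries. A two-sided exact permutation test gave p = 0.333 in each set, which is the smallest that 2 libraries against 2 allow. The Gria2 level was 1.22 and 1.34 times that of Gria1 in PLA1, against 0.583 and 0.535 times in Ctrl1, and 2.65 and 3.11 times in Neuron-PLA, against 1.39 and 1.34 times in Neuron-ctrl. In the first set Gria1 fell, while Gria2 lay higher and Gria3 and Gria4 lower without being called. In the neuron set Gria2 rose, while Gria1 and Gria4 lay lower without being called. The share thus moved with more than 1 subunit in each set. The stages with the highest and the lowest Gria2 share were E11 at 42.8% and E18 at 22.3%.

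**Figure D5:**
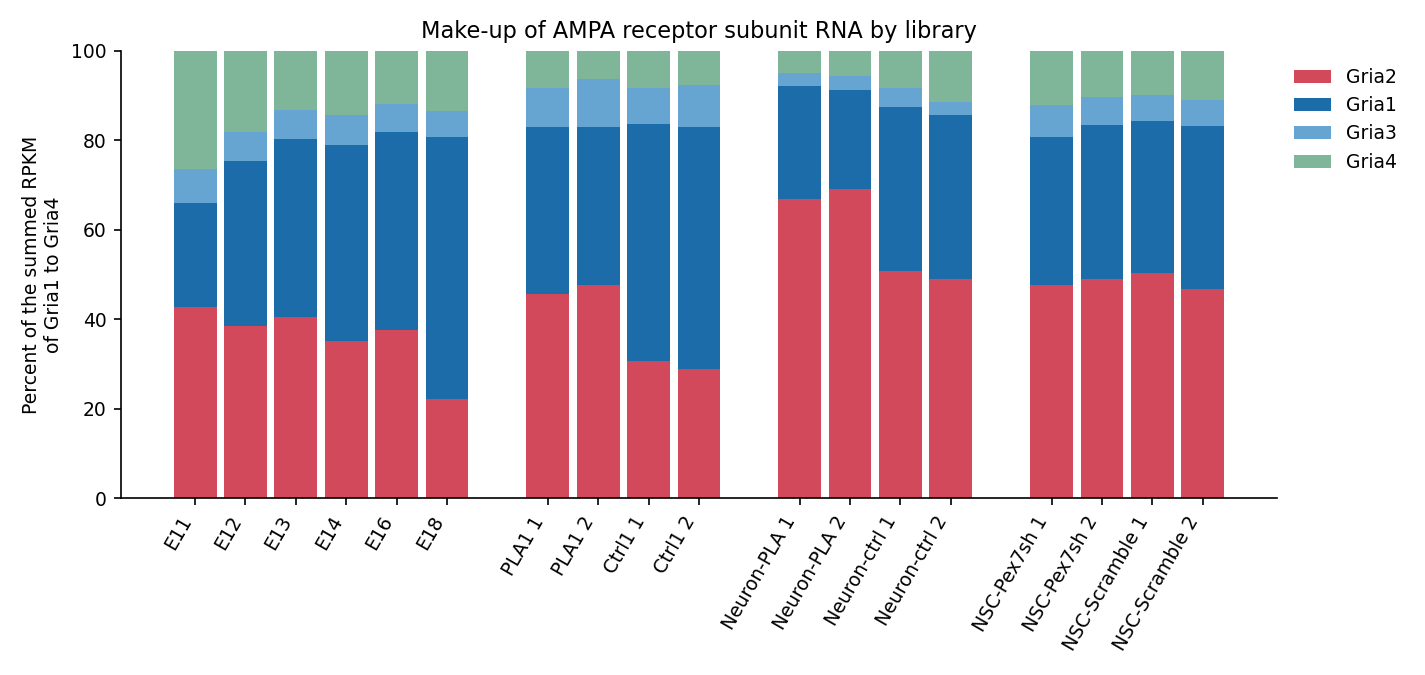
Percent of the summed RPKM of the AMPA subunits that each subunit contributed, with 1 bar per library and each overexpression or knockdown group to the left of its control. Gria2 takes 45.6% and 47.6% in PLA1 against 30.8% and 28.9% in Ctrl1, and 66.8% and 69.03% in Neuron-PLA against 50.9% and 49.0% in Neuron-ctrl.

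The effect of overexpression differed between the sets for 3 of the 5 members that could be tested in both sets. As the change in the first set minus that in the neuron set, limma gave -1.07 for Grin2b (SE 0.18, adjusted p = 0.00510), -0.59 for Gria1 (SE 0.16, adjusted p = 0.0389) and -0.52 for Gria2 (SE 0.12, adjusted p = 0.0226). All 3 differences were negative, as were those called in 5.48% of 11705 genes tested, while 6.19% were called positive and 11.7% in either direction. Grin2b passed in all 14 alternatives, while Gria1 passed in 5 and Gria2 in 9. The neuron markers differed between the sets too, with 8 of 14 called in the same direction. The differences of Gria3 (-0.24) and Gria4 (0.11) did not pass. Grin1 (-0.18) and Grm5 (-0.11) were too low to be tested in the first set and passed the minimum level here through the neuron set. Their differences are given as a description and are not counted.

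Around the receptors, 8 of 38 list genes tested were called in the first set, 5 higher (13.2%) and 3 lower (7.89%). These shares were below the 16.3% higher and 13.2% lower of all genes tested, so the list did not stand out, and the genes that follow are single values. The glial glutamate carrier Slc1a3, which is also a radial glia marker, had 40.5 and 41.0 RPKM in PLA1 against 18.6 and 18.9 in Ctrl1 (log2 change 1.08, SE 0.08). The neuronal carrier Slc1a1 fell (-0.75, SE 0.19). Of the auxiliary subunits Cnih3 fell (-0.74, SE 0.14) and Cacng5 rose (0.65, SE 0.16), and the kainate receptor subunit Grik3 fell (-0.86, SE 0.16). Sorcs1, a sorting receptor that binds AMPA receptors, rose (0.84, SE 0.16).

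Adar had 15.8 and 12.9 RPKM in PLA1 against 7.35 and 7.93 in Ctrl1 (0.82, SE 0.13), and Rest had 4.596 and 5.48 in PLA1 against 2.702 and 2.57 in Ctrl1 (0.73, SE 0.15). In the neuron set Rest had 2.07 and 1.94 RPKM in Neuron-PLA against 0.948 and 1.58 in Neuron-ctrl, and was not called. None of the 49 list genes tested passed in the neuron set. The most abundant transporters there were Slc1a3 (-0.49, limma adjusted p = 0.103) and Slc17a6 (0.60, limma adjusted p = 0.0961).

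With Pex7 knockdown in neural stem cells no member was called. None of the 12482 genes tested passed (0%), 184 had an unadjusted p under 0.05 in limma, and limma-voom called 0 genes with 116 at that unadjusted level. Pex7 itself averaged under 1 RPKM here and was not among the genes tested. With no minimum level its log2 change was -0.48 (SE 0.11, limma unadjusted p = 0.0113, adjusted p = 0.9995). The comparison thus did not call its own target, and an uncalled gene is not shown to be unchanged. Gria2 had 40.7 and 41.5 RPKM in NSC-Pex7sh, against 38.6 and 44.3 in NSC-Scramble (log2 change -0.01, 95% interval -0.24 to 0.23). Gria1 had 28.1 and 28.9 RPKM in NSC-Pex7sh, against 25.9 and 34.6 in NSC-Scramble (-0.07, 95% interval -0.44 to 0.30). In both genes the knockdown values lay inside the range of the scramble libraries.

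Among the members, Grm5 lay higher in NSC-Pex7sh without passing. It had 15.1 and 15.5 RPKM in NSC-Pex7sh, against 13.8 and 13.2 in NSC-Scramble, without overlap (0.17, 95% interval -0.02 to 0.35, unadjusted p = 0.0672, limma adjusted p = 0.9998). Grin3a, with 2.52 and 2.61 RPKM in NSC-Pex7sh against 2.702 and 3.06 in NSC-Scramble, was the other member without overlap (-0.12, 95% interval -0.40 to 0.16). Groups did not overlap for 2 of 8 members tested and for 22.5% of all genes tested.

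Gria3 had 6.01 and 5.37 RPKM in NSC-Pex7sh, against 4.48 and 5.56 in NSC-Scramble, and Gria4 had 10.3 and 8.71 in NSC-Pex7sh, against 7.55 and 10.3 in NSC-Scramble. Grin1 had 6.51 and 6.63 RPKM in NSC-Pex7sh, against 5.30 and 7.73 in NSC-Scramble. Grin2b had 11.9 and 12.3 RPKM in NSC-Pex7sh, against 10.3 and 12.8 in NSC-Scramble. Grin2a, not tested, had 0.935 and 0.786 RPKM in NSC-Pex7sh, against 0.894 and 1.06 in NSC-Scramble. These 5 genes overlapped between groups.

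The knockdown libraries differed less from each other than the scramble libraries did. The first library was below the second for 6 of 9 members in NSC-Pex7sh, with a median log2 difference of -0.03, and for 8 of 9 in NSC-Scramble, with a median of -0.26. The first scramble library also had a neuron marker sum of 1179 against 1589 RPKM, and a radial glia marker sum of 1175 against 833. Oligodendrocyte lineage markers summed to 323 and 324 RPKM in NSC-Pex7sh and to 430 and 218 in NSC-Scramble. The median member change was 0.05 with all libraries, -0.11 without the first scramble library and 0.18 without the second. The Gria2 share of AMPA RPKM was 48.4% ± 0.938 in NSC-Pex7sh and 48.6% ± 2.60 in NSC-Scramble (SD, n = 2 each, two-sided exact permutation p = 1.000).

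None of the 61 list genes tested passed with the knockdown. The most abundant of them in the auxiliary list were Cnih2 (log2 change -0.01, SE 0.11) and Cacng7 (0.06, SE 0.13). In the editing and silencing list they were Adar (-0.03, SE 0.08) and Rcor1 (0.02, SE 0.10).

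The order of the levels differed between the groups, as a description within each table. Gria2 led in PLA1 (12.3 RPKM on average), while Gria1 led in Ctrl1 (19.6). Gria2 also led in Neuron-PLA (61.9), in Neuron-ctrl (38.4), in NSC-Pex7sh (41.1) and in NSC-Scramble (41.4), with Gria1 second in these 4 groups and in PLA1. Grm5 was next in NSC-Pex7sh (15.3) and NSC-Scramble (13.5), where it stood above every NMDA subunit. Grin2b was the highest of the 4 NMDA members in all 6 perturbation groups, and Grin1 was the highest of them at every stage, although Grin3b, outside the members, stood above Grin1 at E11 and E12. Grin2d, also outside them, had 0.275, 1.56 and 11.1 RPKM at E11, E14 and E18, against 0.125, 1.52 and 7.94 for Grin2b. At E12, E13 and E16 Grin2b was the higher of the pair. Grin2a and Grin3a were the lowest members in all 6 perturbation groups, and did not differ beyond their library ranges in Ctrl1 and Neuron-ctrl. Gria4 and Grin2b overlapped in PLA1, as did Gria3 and Gria4 in Ctrl1 and Gria4 and Grm5 in Neuron-ctrl. Cacng7, an auxiliary subunit named after its values were seen, was at 0 to 0.571 RPKM in the overexpression and control libraries and at 57.5 to 127 in the stage and stem cell libraries. A difference in how the libraries of the tables were made and a difference in their cells cannot be told apart, so the orders hold within each table only.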

How the data were processed

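Libraries were built from 2 ug of Trizol-extracted total RNA each, per the labels' protocols. STAR 2.7.9a, HTSeq 0.6.0 and mm10 are named in the submitters' processing notes. The 4 deposited tables hold RPKM made by the authors, a unit read from the values since no header names it. Values times merged exon length (GENCODE M21) times a read total per library were whole within 0.01 for 97.5% to 97.8% of nonzero values, which gave recovered reads for counting intervals (Poisson, 95%) and for limma-voom. No rows were blank or totals, 0 value columns were unmapped, and 62 symbols were duplicated, none of a member.

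The main test was on log2(RPKM + 1), by limma 3.58.1 (R 4.3.3) with its trend option, and a fold change on that scale understates low genes. Genes averaging 1 RPKM or more in the libraries compared were tested, with Benjamini-Hochberg adjusted p under 0.05, two-sided. Groups of 2 libraries were compared within their table, stages by a slope on embryonic day, and the overexpression sets by their interaction. Count models would have been the main test had counts been deposited. Since the tables hold RPKM, the recovered reads were used for limma-voom as an alternative only. Descriptions and figures used Python 3.11.15 and SciPy 1.17.1. Each fit was also run on simulated reads, with changes planted in well expressed genes and a small fixed spread. That run does not speak for genes near the minimum level or for shifts between libraries.

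Alternatives were a pseudocount of 0.1 RPKM, no minimum level, median-ratio and upper-quartile scaling, limma-voom, a replicate block and leaving out each library. The 9 members and all gene lists were chosen with earlier results of these data known. Named were all members and, from each list, up to 4 called genes of smallest adjusted p, or up to 2 of largest mean RPKM where none was called. The 2 genes most like each member by correlation over the stages were also named, except a gene that is not reported here, and any other gene is said to be named after its values were seen.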

Additional observations from a re-analysis of the deposited data

Results flagged for a closer look

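The response of 3 members to PLAAT3-PEX11 overexpression differed between the first set and the neuron set in limma's interaction test, given as PLA1 minus Ctrl1, less Neuron-PLA minus Neuron-ctrl. For Grin2b the difference was -1.071 on the log2 scale (adjusted p = 0.00510), with changes of -0.85 in the first set and 0.22 in the neuron set. For Gria1 it was -0.5901 (adjusted p = 0.0389), with changes of -0.96 in the first set and -0.37 in the neuron set, so that the estimates had the same sign. For Gria2 it was -0.5237 (adjusted p = 0.0226), with changes of 0.15 in the first set and 0.68 in the neuron set. Over 14 alternatives the adjusted p ran from 4.9e-05 to 0.0288 for Grin2b, from 0.0222 to 0.148 for Gria1 and from 0.00454 to 0.0856 for Gria2. Neuron markers had median changes of -0.58 in the first set and 0.07 in the neuron set, and their part in these differences was not tested.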

How the results depend on the processing

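Of 385 values of single members under alternatives, 347 kept their direction and side of the threshold, 25 lost a call, 1 gained a call and 12 changed sign, none of them called. Of the sign changes 11 came with a library left out. The ranges without 1 library were, in the knockdown, -0.21 to 0.27 for Grin1, -0.11 to 0.0888 for Gria2, -0.0752 to 0.21 for Grin2b, -0.11 to 0.30 for Gria4 and -0.27 to 0.13 for Gria1. They were -0.23 to 0.17 for Gria3 in the neuron set, and -0.26 to 0.0367 for Grm5 and -0.0931 to 0.31 for Gria4 in the interaction, where limma-voom gave -0.0083 for Gria4. With no minimum level, 1177 genes and 1 member were called in the first set, 0 genes and 0 members in the neuron set (2280 genes at an unadjusted p under 0.05), and 761 genes in the interaction. Limma-voom called 339 genes in the neuron set, against 98 by limma on log2(RPKM + 1). Leaving out 1 library at a time gave 1575 to 3294 genes and 2 members in the first set, lowest without the first Ctrl1 library and 2048 without the second PLA1 library. It gave 7 to 163 genes and 0 to 1 members in the neuron set, 2537 (without E18) to 5485 genes and 7 to 8 members for the slope, 636 to 1218 genes and 1 to 3 members for the interaction, and 0 genes in the knockdown. The causes were not tested, except that a left-out library leaves fewer samples and no minimum level adds genes to the adjustment. Correlations of replicate deviations were 0.0101 in the knockdown, 0.0991 in the first set and 0.0468 in the neuron set. They do not settle whether replicate numbers pair the samples. With the replicate block 1 gene was called in the knockdown and 54 in the neuron set. It called 4297 genes in the first set, against 3438 without it, and 1438 in the interaction, against 1367. Gria1 then missed the interaction (limma adjusted p = 0.0507). Median-ratio scaling left 46.5% of calls higher in the first set, against 55.3%. Grin2a rested on 0 to 43 reads in the first set, so its values there carry wide counting error.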

Other observations

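Some genes around the receptors stood at very different levels in the overexpression tables and in the other tables, controls included. They were picked after their values were seen, and the tables were normalised separately, so no test was made. Whether the libraries of these tables were made alike is not given in the sources used here, and a difference in preparation and a difference in cells cannot be told apart. Cacng7, an AMPA receptor auxiliary subunit, was between 0 and 0.571 RPKM in all 8 overexpression and control libraries, and between 57.5 and 127 RPKM in the stage and stem cell libraries. The kainate receptor subunit Grik5 was between 0.568 and 1.47 RPKM in the overexpression and control libraries and between 38.4 and 54.2 in the others. Elavl4, a neuronal RNA-binding protein, ran the other way, with 41.9 to 64.1 RPKM in the overexpression and control libraries and 10.2 to 21.7 in the others. Among the members, Grin1 had 0.184 to 0.402 RPKM in the first set, 1.95 to 2.12 in the neuron set, 5.30 to 7.73 in the stem cells and 0.415 to 14.1 over the stages, while Gria1 had 9.29 to 20.7 in the first set and 1.90 to 40.0 over the stages.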
